A study of Mus musculus with 19 samples.

Results

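The genes described here encode the translation initiation factors (eIFs) and elongation factors (eEFs) of the mouse, with their direct kinases, inhibitors, and methyltransferases. Members were taken by symbol, as every protein_coding gene whose GENCODE symbol begins with Eif or Eef followed by a digit. The rule found 68 genes among the 21897 protein_coding genes and 55487 genes in all, and the rule uses no measured value. They were divided by role into start codon recognition (10 genes), eIF2 (4), its exchange factor eIF2B (5), the eIF2 kinases (4), eIF3 (14), the cap complex (13), the cap inhibitors (3), elongation (9), and modifiers of elongation factors (6).

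Crypts of the small intestine were taken from 19 mice labelled C57BL/6, and each mouse gave 1 library. Per the study's methods, crypts were isolated from the proximal part of the small intestine. The study places neurotensin mainly in the distal part. Of the Nt+/+ mice 5 had food ad libitum and 5 were fasted for 48 hours with water only, and of the Nt-/- mice these numbers were 4 and 5. Nt is the gene of the gut hormone neurotensin (Nts in the files), and the knockout mice lack it in all cells. Mice were adult and of both sexes, 12 labelled female and 6 male, with no sex label for 1. The study describes its control mice as littermates matched by sex and age. The study describes its fed and fasted mice of both genotypes as Lgr5-EGFP mice and lists colonies with and without the Lgr5-EGFP-IRES-CreERT2 allele. The labels of these samples do not name the allele, so whether these mice carried it is not known here. The comparisons ask how fasting changed crypt RNA in each genotype, how the genotypes differed in each diet, and whether the effect of fasting differed between them.

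Translation of most mRNAs starts when the cap-binding complex, built from eIF4E, the scaffold eIF4G, and the helicase eIF4A, recruits a small ribosomal subunit carrying eIF3 and the initiator tRNA on eIF2. Cells short of amino acids or energy limit this step in a pair of ways, by phosphorylation of eIF2, which blocks its exchange factor eIF2B, and by the 4E-binding proteins, which hold eIF4E away from eIF4G when mTORC1 is inactive. Many mRNAs of elongation factors and some of initiation factors belong, with those of ribosomal proteins, to the terminal oligopyrimidine (TOP) class, whose transcripts begin with a C and a run of pyrimidines and whose translation depends on mTORC1. These measurements are of RNA only, and say nothing of protein, phosphorylation, or translation.

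Libraries held between 9059418 and 35068669 expected counts (median, 18541770). Nts checked the genotypes: it was between 4.98 and 8.59 CPM (counts scaled to the size of the library) in the 10 mice titled Nt+/+ and between 0.144 and 0.793 CPM in the 9 Nt-/- mice. Replicate 5 of the fasted Nt+/+ group has a title and a genotype label that disagree, was grouped by its title, and had 5.43 CPM of Nts, within the range of the Nt+/+ mice. Epcam, a marker of epithelium that is not particular to crypts, was between 884 and 1122 CPM. Of the stem cell markers, Lgr5 was between 19.2 and 43.5 CPM and Olfm4 between 715 and 2413 CPM. The summed level of 7 enterocyte markers was between 3210 and 7691 CPM in fed mice and between 6885 and 17076 CPM in fasted mice. Summed levels of 8 stromal and muscle markers (6.28 to 15.2 CPM) and of 3 endothelial markers (0.920 to 2.45 CPM) were low in all mice.

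Because the factors that rose with fasting in both genotypes include textbook TOP mRNAs, the bases around their annotated starts were read from the RefSeq promoter sequences of GRCm38.p6. Each line gives 10 bases before and 20 bases from the start, 5′ to 3′ on the gene's strand, and capitals mark a run of at least 6 pyrimidines that begins with C within 10 bases of the start.
Eef1a1 (chr9:78481705-78481734, minus strand): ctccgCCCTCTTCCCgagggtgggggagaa
Eif3f (chr7:108934405-108934434, plus strand): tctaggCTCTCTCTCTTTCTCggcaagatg
Eif4b (chr15:102073763-102073792, plus strand): tcccgtcggacgccgcgccaCCCCCTCgcg
Eef2 (chr10:81176621-81176650, plus strand): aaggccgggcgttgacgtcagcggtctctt
Eef1b2 (chr1:63176821-63176850, plus strand): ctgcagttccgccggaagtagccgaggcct
Counted from the annotated start, the run began at -5 in Eef1a1, at -4 in Eif3f, and at 10 in Eif4b. None began at the annotated start itself, so these runs do not show that a transcript begins with one. No run began within 10 bases of the start in Eef2 or Eef1b2, although the Eef2 line ends in pyrimidines beyond that limit. The absence thus holds only for the bases searched, and Eif3h and Eif4ebp3 are not shown. Over all factors, 14 of 67 RefSeq entries (20.9%) held such a run, in 12 of the 52 factors with an entry, compared with 15% of all 32851 entries. Such a match describes the letters at 1 annotated start and is not a mapped site.

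Levels of the factors were compared in ad libitum–fed Nt+/+ mice in TPM, RSEM's scaled share of transcripts, which corrects for transcript length. Elongation factors were the most abundant. Eef1a1, which delivers aminoacyl-tRNA to the ribosome, was at 4083 TPM, and Eef2, which moves the ribosome along the mRNA, at 747 TPM. Eef1b2, a nucleotide exchange factor for eEF1A, followed at 544 TPM. Next came Eif1, which guards start codon choice, at 414 TPM and Eif5a, the hypusine-bearing factor that helps the ribosome past difficult sequences, at 341 TPM. The order was the same when expected counts were divided by effective length and scaled by library size, apart from an exchange of ranks between Eif3m and Eif4ebp2.

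Paralogues of these factors ranged from near equal to far apart in level. Eef1a2, the muscle and neuron form of eEF1A, had 1 count over all 19 mice, and Eif4e1b, an oocyte cap-binding protein, had none, and both failed the filter on low counts. Eif5a2 was at 0.134 TPM against 341 TPM for Eif5a. Of the cap-binding proteins, Eif4e was at 59.2 TPM, the inhibitory relative Eif4e2 at 53.8 TPM, and Eif4e3 at 3.16 TPM. Of the scaffolds, Eif4g2, which lacks the eIF4E-binding part, was highest at 299 TPM, with Eif4g1 at 189 TPM and Eif4g3 at 20.8 TPM. The helicases Eif4a1 and Eif4a2 were at 312 and 192 TPM. Eif4ebp2 was the most abundant 4E-binding protein at 61.7 TPM, with Eif4ebp1 at 10.2 and Eif4ebp3 at 9.35 TPM. Among the eIF2 kinases, Eif2ak2 (PKR, activated by double-stranded RNA) was at 25.9 TPM, Eif2ak1 (HRI, regulated by heme) at 21.4, Eif2ak3 (PERK, of the endoplasmic reticulum) at 13.5, and Eif2ak4 (GCN2, the sensor of amino acid shortage) at 5.28 TPM.

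**Figure D1:**
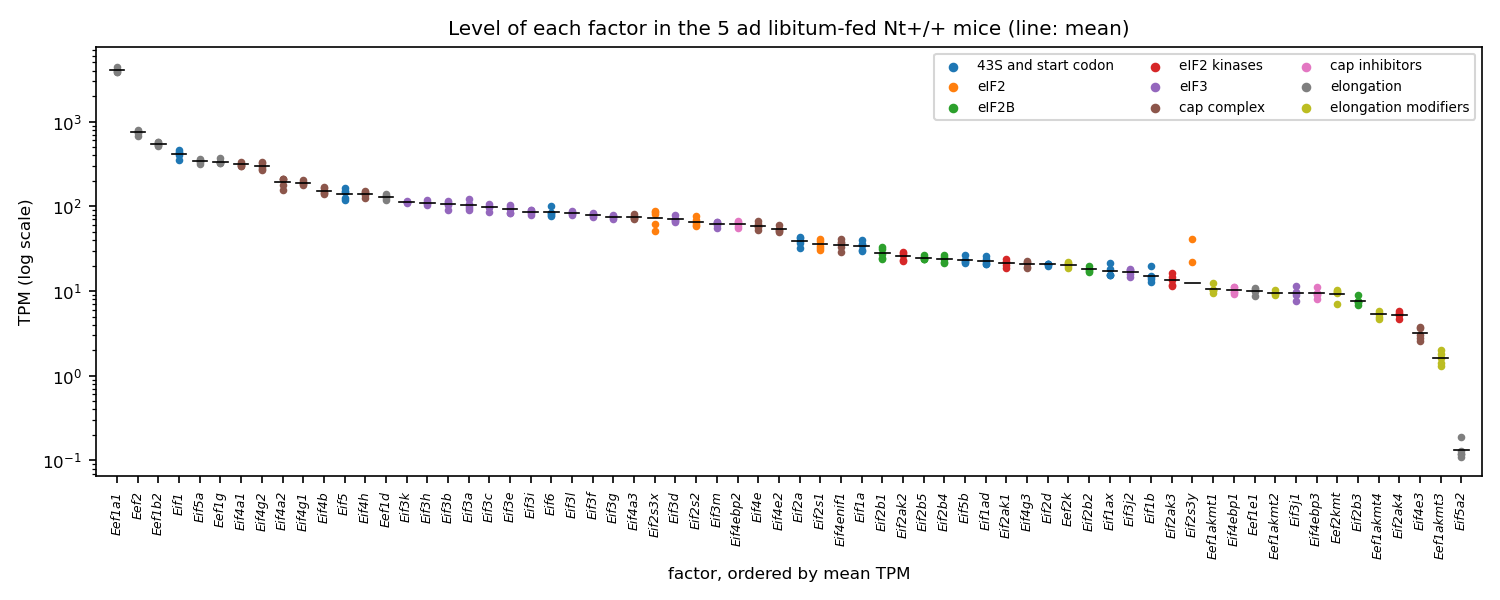
TPM (log scale) of the 66 factors with a value above 0 in ad libitum–fed Nt+/+ mice, ordered by mean; points are the 5 mice, short lines the means, and colors the roles. Eef1a1 stands alone at 4083 TPM, and most subunits of eIF3 lie close together; Eif2s3y has points only for the male mice.

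Within complexes, the span of levels was smallest for eIF2 and greatest for eIF3. The 3 autosomal or X-linked subunits of eIF2 ranged from 35.5 TPM (Eif2s1) to 73.4 TPM (Eif2s3x), a ratio of 2.07. The 5 subunits of eIF2B ranged from 7.67 (Eif2b3) to 28.1 TPM (Eif2b1), a ratio of 3.66. The 14 genes of eIF3 ranged from 9.43 (Eif3j1) to 113 TPM (Eif3k), a ratio of 12.0, with a median of 84.6 TPM.

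Fasting for 48 hours changed the level of 12 of the 66 tested factors in Nt+/+ mice, 8 higher and 4 lower at an adjusted p under 0.05. This share of 18.2% stands beside 21.6% of all 17875 genes tested, of which 11.2% were higher and 10.4% lower. In Nt-/- mice 21 of 66 changed, 10 higher and 11 lower (31.8%), beside 25.2% of all genes, 12.5% higher and 12.6% lower. The median log2 fold change of the factors was -0.0326 in Nt+/+ and -0.0489 in Nt-/- mice, and that of all genes was -0.00886 and -0.0220. The share of factors that changed was thus close to that of all genes, and the results that follow are those of single factors. In a bulk library of crypts, fewer cells of a type and less RNA per cell cannot be told apart. The enterocyte markers rose with fasting (5 of 7 passed in Nt+/+ and 7 of 7 in Nt-/- mice). Among 7 markers listed for crypt epithelium, which include general epithelial genes such as Epcam, Olfm4 and Mki67 fell in both genotypes. Of 3 goblet markers 1 fell in Nt+/+ and 2 in Nt-/- mice. Chga, among 3 enteroendocrine markers, rose in both genotypes (adjusted p = 0.0212 and 0.0195), and Itgam, among 7 immune markers, fell in both (adjusted p = 1.46e-04 and 0.00653). The summed immune markers were between 69.0 and 122 CPM in fed and between 58.5 and 160 CPM in fasted mice, which overlapped. No tested marker of Paneth cells, tuft cells, stroma, muscle, or endothelium passed. The part of these shifts in the changes of the factors was not tested.

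The same 10 factors passed in both genotypes, each in the same direction. They were 83.3% of the factors that changed in Nt+/+ mice and 47.6% of those that changed in Nt-/- mice. Over all genes tested, 2932 passed in both genotypes, 2931 of them in the same direction, which were 75.9% and 65.2% of the genes that changed in each. Both sets of shares are descriptions, and no difference between factors and other genes was tested. Of these, 7 rose: Eif4ebp3, Eef2, Eef1b2, Eif3f, Eif4b, Eef1a1, and Eif3h. The 3 that fell were Eif2d, Eef1akmt1, and Eef1akmt3. The log2 fold changes in the genotypes, which share no mice, had a Pearson r of 0.902 over 65 factors and of 0.777 over all genes. This r is across genes, which are not independent replicates.

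**Figure D2:**
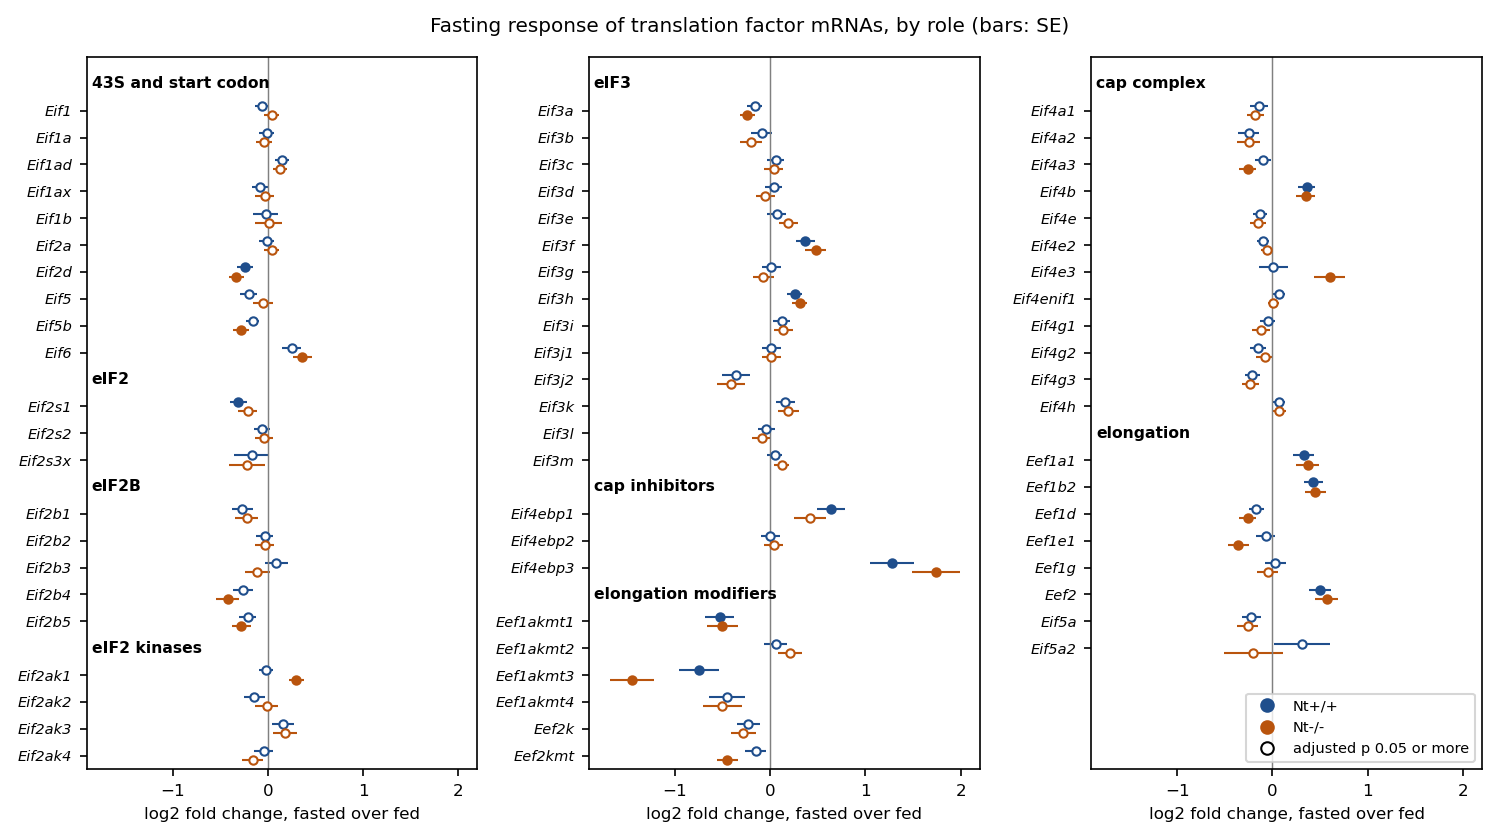
Log2 fold change of fasted over ad libitum–fed mice (x axis, with SE) for 65 tested factors by role, in Nt+/+ (blue) and Nt-/- mice (orange); filled points had an adjusted p under 0.05 and Eif2s3y, which is expressed in male mice, is left out. Eif4ebp3 and Eef1akmt3 lie farthest from 0 in both genotypes, and Eif2ak1 and Eif4e3 lie near 0 in Nt+/+ and at 0.30 and 0.60 in Nt-/- mice.

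The cap inhibitors held the factor with the greatest rise. Eif4ebp3, a 4E-binding protein, was at 5.28, 5.87, 5.68, 5.08, and 5.03 CPM in fed Nt+/+ mice and at 8.28, 9.89, 22.0, 16.4, and 8.51 CPM in fasted Nt+/+ mice. Among Nt-/- mice it was at 4.13, 3.57, 4.82, and 5.86 CPM fed and 13.8, 12.8, 20.3, 15.1, and 14.5 CPM fasted. Every fasted mouse of either genotype was above every fed mouse. The rise was 2.42-fold in Nt+/+ (log2, 1.28 ± 0.23 SE; adjusted p = 5.99e-04) and 3.34-fold in Nt-/- mice (1.74 ± 0.25; adjusted p = 5.99e-05). Eif4ebp3 lies within AC115631.1, a gene model on the same strand, at 17.9 CPM in fasted and 16.3 CPM in fed Nt+/+ mice, so its reads rest on how RSEM divided them. AC115631.1 itself had log2 fold changes of 0.13 ± 0.10 and -0.11 ± 0.11 (adjusted p = 0.394 and 0.523).

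Eif4ebp1, the best known 4E-binding protein and a direct substrate of mTORC1, was at 10, 9.83, 10.8, 7.77, and 9.67 CPM in fed and 12.4, 12.8, 21.0, 10.5, and 18.1 CPM in fasted Nt+/+ mice. Replicate 4 of the fasted mice fell within the range of the fed mice, and the others were above it. It rose 1.56-fold in Nt+/+ mice (adjusted p = 0.00572). For Nt-/- mice, the fed (8.84 to 10.9 CPM) and fasted mice (11.7 to 14.3 CPM) did not overlap, but the change of 0.42 ± 0.17 on the log2 scale did not pass (adjusted p = 0.0708). The difference between genotypes was -0.22 ± 0.23 (adjusted p = 1.000). Eif4ebp2, the most abundant of the family, had log2 fold changes of 0.00 ± 0.10 and 0.04 ± 0.10 (adjusted p = 0.984 and 0.842).

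Of the elongation factors, Eef1a1, Eef1b2, and Eef2 rose in both genotypes. Eef2 was at 2289, 1933, 2071, 1677, and 1864 CPM in fed and 3113, 2696, 2776, 2610, and 2746 CPM in fasted Nt+/+ mice. In Nt-/- mice it was at 2259, 2003, 1918, and 2134 CPM fed and 3846, 2553, 2754, 2791, and 3438 CPM fasted. The fed and fasted mice did not overlap in either genotype, and replicates 1 and 5 of the fasted Nt-/- mice were highest. The rise was 1.42-fold in Nt+/+ (log2, 0.50 ± 0.12; adjusted p = 0.00403) and 1.48-fold in Nt-/- mice (0.57 ± 0.12; adjusted p = 0.00230).

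Eef1a1 was at 5285, 4536, 5119, 4358, and 4739 CPM in fed and 6697, 5808, 5625, 5436, and 6582 CPM in fasted Nt+/+ mice. Among Nt-/- mice it was at 4960, 4564, 5012, and 5372 CPM fed and 7633, 5334, 6007, 6170, and 7039 CPM fasted. The ranges were apart in Nt+/+ mice, and in Nt-/- mice 1 fasted mouse lay within the fed range. The rise was 1.25-fold (log2, 0.33 ± 0.11; adjusted p = 0.0404) and 1.29-fold (0.37 ± 0.12; adjusted p = 0.0263). These calls lie close to the threshold, and each was lost in some alternatives, with adjusted p up to 0.119 and 0.0930 over 28 alternatives. Eef1a1 has many near-identical processed pseudogenes, so its count also depends on how RSEM divided shared reads.

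Eef1b2 was between 259 and 329 CPM in fed and between 360 and 437 CPM in fasted Nt+/+ mice, a rise of 1.35-fold (adjusted p = 0.00418). For Nt-/- mice, it was between 267 and 341 CPM fed and between 346 and 485 CPM fasted, a rise of 1.37-fold (adjusted p = 0.00384). The gene overlaps Ndufs1 on the opposite strand, at 161 CPM. Ndufs1 had log2 fold changes of -0.23 ± 0.08 and -0.20 ± 0.08 (adjusted p = 0.0321 and 0.0685). The other subunits of the same exchange complex did not rise with Eef1b2. Eef1d was at 93.5 CPM in fed and 82.8 CPM in fasted Nt+/+ mice (adjusted p = 0.153), and it fell in Nt-/- mice from 88.8 to 74.1 CPM (log2, -0.26 ± 0.09; adjusted p = 0.0395). Its gene overlaps Naprt on the same strand, which rose in both genotypes (log2, 0.63 and 0.72). Eef1g was at 487 CPM fed and 499 CPM fasted in Nt+/+ mice, with log2 fold changes of 0.03 ± 0.11 and -0.05 ± 0.11 in the genotypes (adjusted p = 0.862 and 0.798). Eef1d and Eef1g are also textbook TOP mRNAs. Eef1e1, named as an elongation factor but a part of the multi-tRNA synthetase complex, fell in Nt-/- mice from 14.0 to 10.9 CPM (log2, -0.36 ± 0.11; adjusted p = 0.0223). Eif5a had log2 fold changes of -0.22 ± 0.10 and -0.26 ± 0.11, and neither passed without a replicate block (adjusted p = 0.128 and 0.0861). With either replicate number as a block, Eif5a passed in both genotypes, and Eef1d passed in Nt+/+ mice too.

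Together Eef1a1 and Eef2 held between 43.2% and 46.0% of all counts of the factors in fed mice and between 49.3% and 55.4% in fasted mice. All factors together took 1.47% to 1.67% of the library in fed mice and 1.52% to 1.95% in fasted mice.

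In eIF3, the large complex that bridges the small subunit and eIF4G, 2 of 14 subunits rose in both genotypes. Eif3f was at 167, 137, 155, 129, and 140 CPM in fed and 217, 174, 190, 169, and 192 CPM in fasted Nt+/+ mice. In Nt-/- mice it was at 161, 140, 137, and 150 CPM fed and 255, 167, 185, 192, and 226 CPM fasted. No fasted mouse lay within the fed range of its genotype. The rise was 1.29-fold (adjusted p = 0.0143) and 1.40-fold (adjusted p = 0.00347). Eif3h was between 108 and 128 CPM in fed and between 125 and 152 CPM in fasted Nt+/+ mice (1.19-fold; adjusted p = 0.0244), and in Nt-/- mice between 111 and 128 CPM fed and between 130 and 169 CPM fasted (1.24-fold; adjusted p = 0.00949). Eif3f and Eif3h are the subunits of eIF3 that carry an MPN domain. Eif3a, the largest scaffold subunit, fell in Nt-/- mice from 426 to 362 CPM (adjusted p = 0.0433), and it was named after its value was seen. The other 11 subunits passed in neither genotype without a replicate block, and the median log2 fold change of the complex was 0.04 and 0.03. With the file-name number as a block, Eif3j2 passed in both genotypes and Eif3b in Nt-/- mice.

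In the cap complex, Eif4b rose in both genotypes. eIF4B stimulates the eIF4A helicase and is a substrate of S6 kinase. It was at 490, 486, 460, 417, and 472 CPM in fed and 647, 563, 562, 577, and 627 CPM in fasted Nt+/+ mice, which did not overlap. Among Nt-/- mice it was at 495, 464, 505, and 536 CPM fed and 715, 532, 585, 607, and 755 CPM fasted, with 1 fasted mouse within the fed range. The rise was 1.28-fold in each genotype (adjusted p = 0.00782 and 0.0107). Its partners did not pass without a replicate block. With the file-name number as a block, Eif4g3 passed in both genotypes and Eif4a1 in Nt-/- mice. Eif4a1 had log2 fold changes of -0.14 ± 0.09 and -0.18 ± 0.09 (adjusted p = 0.286 and 0.172) and Eif4a2 of -0.25 ± 0.11 and -0.25 ± 0.12 (adjusted p = 0.114 and 0.134). The scaffolds Eif4g1, Eif4g2, and Eif4g3 lay between -0.23 and -0.05, with the lowest adjusted p of 0.0577 for Eif4g3 in Nt-/- mice. Eif4e and Eif4e2 lay between -0.15 and -0.06 (lowest adjusted p = 0.186). Eif4a3, a related helicase of the exon junction complex, fell in Nt-/- mice from 73.7 to 61.5 CPM (log2, -0.26 ± 0.09; adjusted p = 0.0348).

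**Figure D3:**
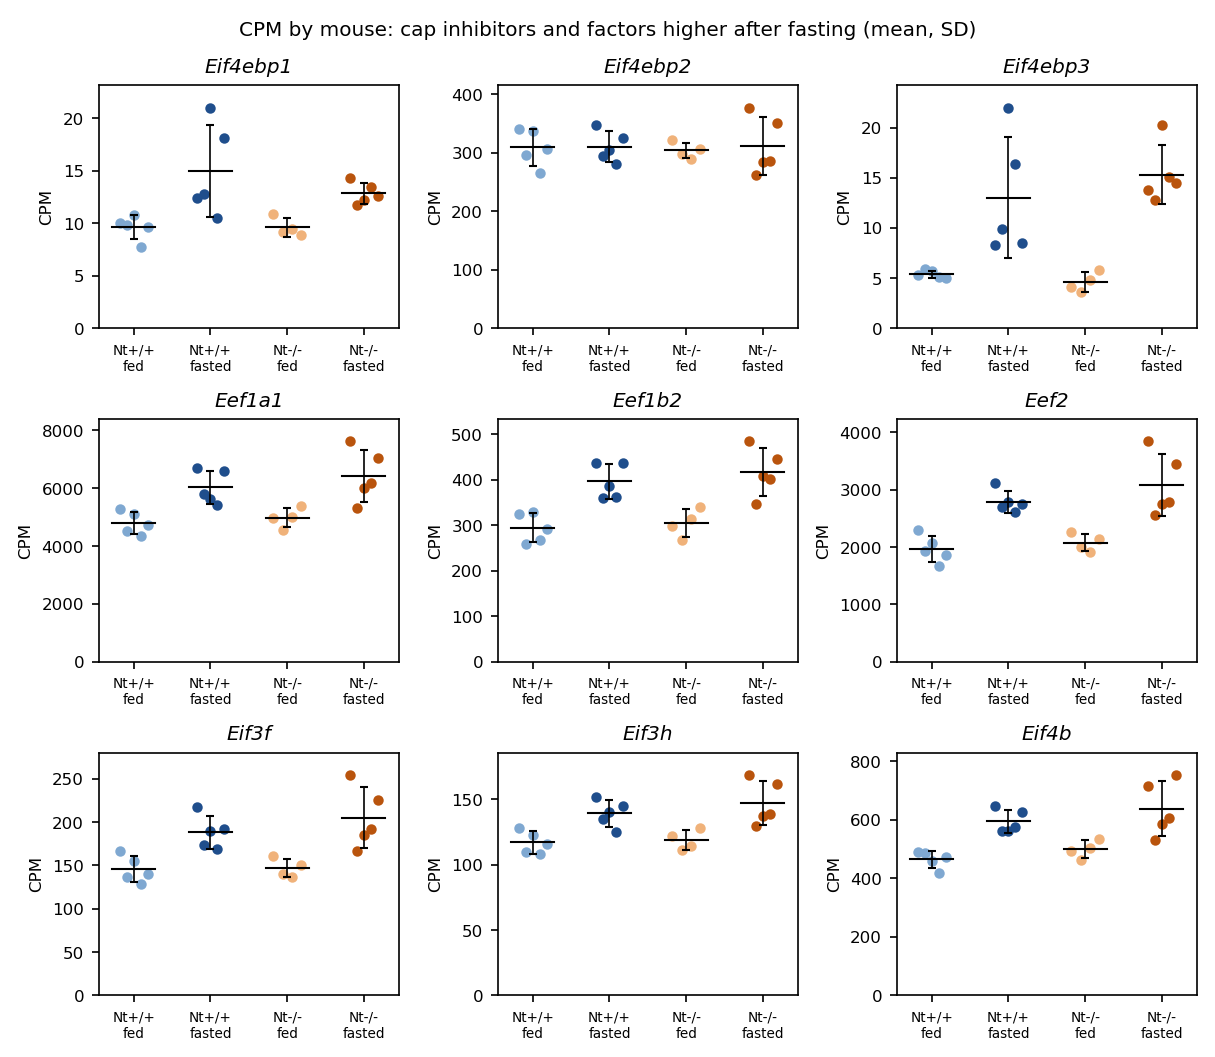
CPM (y axes from 0) of the 3 cap inhibitors and of 6 factors that rose with fasting in both genotypes; points are mice, lines the mean, and bars the SD. Fasted mice lie above fed mice of the same genotype for Eif4ebp3, Eef1b2, Eef2, and Eif3f, whereas those of Eif4ebp2 overlap.

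Eef1a1, Eef1b2, Eef2, Eif3f, Eif3h, and Eif4b also varied together among mice of the same group. After the group mean of log2(CPM + 1) was removed, the 15 pairs of these factors had a Pearson r between 0.745 and 0.972 (median, 0.875) over 19 mice, and all 2080 pairs of tested factors had a median of 0.336. Eif4ebp3, which rose in both genotypes too, had an r between -0.269 and -0.0674 with each of them. These are descriptions, since the values of a mouse share a library and its scaling. The factors were chosen because they rose, and no set of factors that did not rise was compared with them. Eef1g, which passed in neither genotype, was also highest in fasted Nt-/- mice 1 and 5 (556 and 538 CPM; others, 388 to 447 CPM). Varying together was thus not shown to be particular to the factors that rose.

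Among the modifiers of elongation factors, the methyltransferases Eef1akmt1 and Eef1akmt3, which methylate lysines of eEF1A, fell in both genotypes. Eef1akmt3 was at 5.37, 2.80, 4.49, 3.15, and 3.48 CPM in fed and 2.66, 1.91, 2.37, 1.66, and 2.80 CPM in fasted Nt+/+ mice. For Nt-/- mice, it was at 4.69, 3.79, 4.82, and 3.14 CPM fed and 1.92, 1.70, 1.39, 1.09, and 1.37 CPM fasted. Fed and fasted mice were apart in Nt-/- mice and met at 2.80 CPM in Nt+/+ mice. The level was 1.68-fold lower in Nt+/+ (log2, -0.75 ± 0.21; adjusted p = 0.0137) and 2.74-fold lower in Nt-/- mice (-1.45 ± 0.23; adjusted p = 1.34e-04). These are low levels, with as few as 11 counts in a mouse. The gene overlaps Mettl1, on the opposite strand at 17.4 CPM, which did not pass (adjusted p = 0.664 and 0.132), and without a stated strand setting their shared reads cannot be told apart. Eef1akmt1 was 1.44-fold lower in Nt+/+ (7.05 to 4.87 CPM; adjusted p = 0.0146) and 1.42-fold lower in Nt-/- mice (7.11 to 4.97 CPM; adjusted p = 0.0246). Eef2kmt, which methylates eEF2, fell in Nt-/- mice from 13.7 to 10 CPM (log2, -0.45 ± 0.11; adjusted p = 0.00676), and it overlaps Alg1 on the opposite strand, at 10.3 CPM. Eef2k, the kinase that inhibits eEF2, had log2 fold changes of -0.23 ± 0.12 and -0.28 ± 0.13 (adjusted p = 0.195 and 0.120). It passed in both genotypes with either replicate number as a block.

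Around start codon recognition, Eif2d fell in both genotypes. It delivers tRNA to the ribosome without the need for GTP and takes part in recycling and re-initiation. It was between 34.0 and 40.3 CPM in fed and between 27.6 and 33.1 CPM in fasted Nt+/+ mice (log2, -0.24 ± 0.08; adjusted p = 0.0319). The Nt-/- mice were between 36.8 and 38.8 CPM fed and between 25.3 and 32.1 CPM fasted (-0.33 ± 0.08; adjusted p = 0.00549). Eif6, which keeps the large ribosomal subunit from joining too early, was at 95.7 CPM in fed and 114 CPM in fasted Nt+/+ mice (adjusted p = 0.0773), and it rose in Nt-/- mice from 90.2 to 115 CPM (log2, 0.36 ± 0.10; adjusted p = 0.0167). Eif5b, the GTPase that joins the subunits, fell in Nt-/- mice from 122 to 101 CPM (-0.28 ± 0.08; adjusted p = 0.0104). Its gene overlaps Rev1 on the opposite strand, at 19.8 CPM, which rose in both genotypes (log2, 0.41 and 0.43). Eif1 and its paralogue Eif1b lay between -0.06 and 0.04 (lowest adjusted p = 0.598).

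In eIF2, the alpha subunit Eif2s1, which carries the serine that the eIF2 kinases phosphorylate, was at 73.9, 58.5, 75.1, 65.2, and 72.3 CPM in fed and 55.1, 55.0, 59.6, 45.2, and 63.4 CPM in fasted Nt+/+ mice. The groups overlapped, and the level was 1.24-fold lower (log2, -0.31 ± 0.09; adjusted p = 0.0235). Among Nt-/- mice the change was -0.21 ± 0.10 (adjusted p = 0.127), and Eif2s1 passed there with either replicate number as a block. Of the 5 subunits of eIF2B, Eif2b4 fell in Nt-/- mice from 28.1 to 20.9 CPM (-0.42 ± 0.12; adjusted p = 0.0142) and Eif2b5, the catalytic subunit, from 52.0 to 42.6 CPM (-0.28 ± 0.10; adjusted p = 0.0392). None of the 5 passed in Nt+/+ mice by edgeR or DESeq2 without a replicate block, where 3 had an unadjusted p under 0.05 (34.1% of all genes did) and the median log2 fold change was -0.21, beside -0.22 in Nt-/- mice. With either replicate number as a block, Eif2b1, Eif2b4, and Eif2b5 passed in Nt+/+ mice, and Eif2b1 also passed in Nt-/- mice. Eif2b4 overlaps Snx17 on the opposite strand, at 53.9 CPM.

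Of the 4 eIF2 kinases, Eif2ak1 passed in Nt-/- mice. It was at 79.2, 71.2, 67.7, and 80.5 CPM in fed and 90.6, 88.7, 93.9, 85.9, and 102 CPM in fasted Nt-/- mice, which did not overlap (log2, 0.30 ± 0.08; adjusted p = 0.00621). The call was lost in 1 of 28 alternatives, with the fasted mouse whose labels disagree grouped as Nt-/- (0.24; adjusted p = 0.0749). In Nt+/+ mice it was between 72.6 and 77.3 CPM fed and between 65.8 and 84.5 CPM fasted (-0.02 ± 0.07; adjusted p = 0.849). Eif2ak2, Eif2ak3, and Eif2ak4 passed in neither genotype, with log2 fold changes between -0.16 and 0.18. Eif4e3, an atypical cap-binding protein, showed the same pattern as Eif2ak1 at a low level. It was at 6.14, 5.68, 4.96, and 6.34 CPM in fed and 7.53, 8.40, 11.4, 7.40, and 9.09 CPM in fasted Nt-/- mice (0.60 ± 0.16; adjusted p = 0.00819) and had a log2 fold change of 0.01 ± 0.15 in Nt+/+ mice (adjusted p = 0.974). It overlaps Gm20696 on the same strand, which had -0.50 ± 0.19 and -0.31 ± 0.20 (adjusted p = 0.0639 and 0.295).

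**Figure D4:**
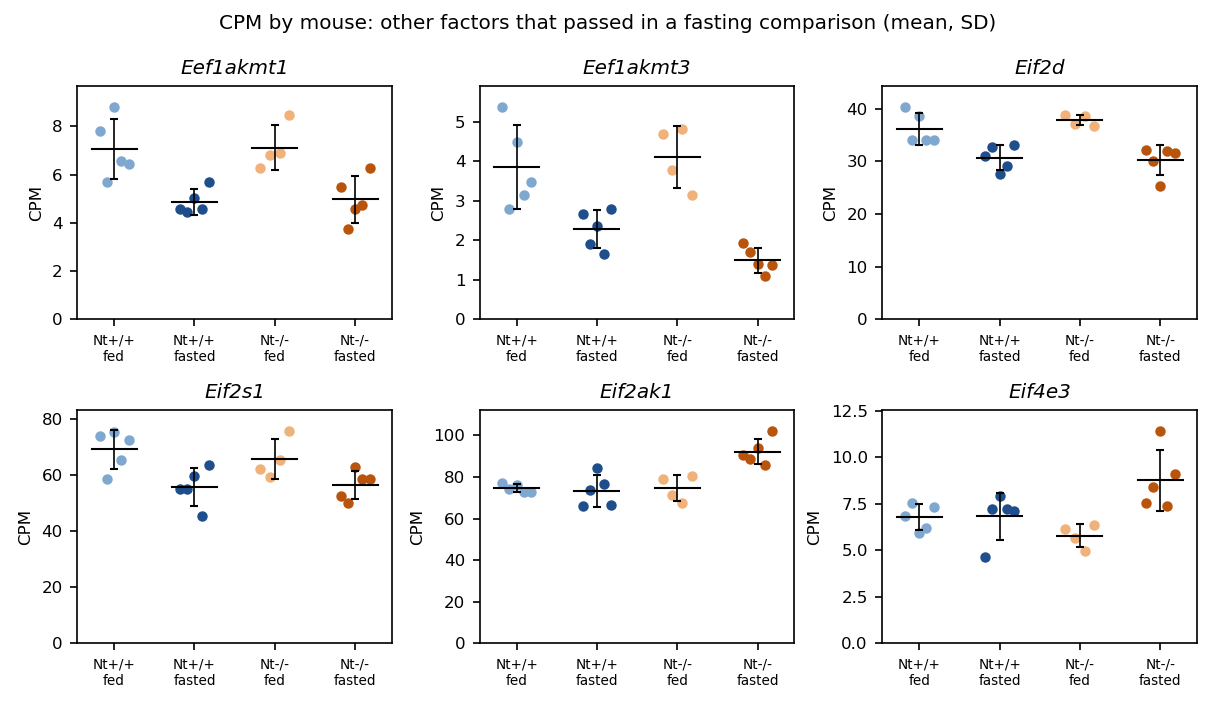
CPM (y axes from 0) of 6 further factors by mouse; points are mice, lines the mean, and bars the SD. Eef1akmt1, Eef1akmt3, Eif2d, and Eif2s1 have lower means in fasted mice, and Eif2ak1 and Eif4e3 are highest in fasted Nt-/- mice.

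Of the 33 calls, 12 in Nt+/+ and 21 in Nt-/- mice, 19 held in all alternatives, among them both calls of Eif4ebp3, Eef2, Eef1b2, Eif3f, Eif4b, and Eef1akmt3. The other 14 were lost in at least 1 and at most 11 of 28 alternatives, and that of Eif2ak1 in 1, given above. In Nt+/+ mice the call of Eif2d was lost without fed mouse 1 or 3 or fasted mouse 3 or 4 (adjusted p up to 0.0926), that of Eif2s1 without fed mouse 1, 3, or 5 or fasted mouse 4 (up to 0.0726), and that of Eif3h without fed mouse 2 or 4 or fasted mouse 1 (up to 0.0621). That of Eef1a1 was lost without any of fed mice 2 to 5 or fasted mice 1, 2, or 5 (up to 0.0945). For Nt-/- mice, the call of Eef1a1 was lost without fed mouse 1, 2, or 3 or fasted mouse 1 or 5 (up to 0.0841), that of Eef1akmt1 without fed mouse 4 or fasted mouse 2 or 3 (up to 0.0906), and that of Eef1e1 without fed mouse 3 or 4 or fasted mouse 4 (up to 0.0693). Eif2b4 was lost without fed mouse 1 (0.0501) and Eif6 without fed mouse 2 or 3 (up to 0.0601). Eef1d, Eif2b5, Eif3a, and Eif4a3 were lost without fed mouse 4 or fasted mouse 2, 3, or 4 (up to 0.120, 0.107, 0.162, and 0.103). They were also lost without fed mouse 1 (Eef1d, Eif2b5, Eif4a3), 2 (Eif2b5, Eif3a, Eif4a3), or 3 (Eef1d, Eif3a, Eif4a3), and, through the shared spread, without fasted Nt+/+ mouse 2 (Eef1d, Eif2b5, Eif3a) or fed Nt+/+ mouse 3 (Eif3a).

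Of the factors 2 (3.03%) passed in Nt+/+ mice alone and 11 (16.7%) in Nt-/- mice alone, beside 5.20% and 8.77% of all genes. These lists depend on the fit without a replicate block. With the file-name number as a block, Eef1d, Eif2b4, Eif2b5, Eif3a, Eif5b, and Eif6 also passed in Nt+/+ mice, and Eif2s1 also passed in Nt-/- mice. By edgeR or DESeq2, 0 factors passed the test of whether the genotypes differed in their response, and by edgeR 0 of the 17875 genes passed (0%). At an unadjusted p under 0.05 the difference was found for 3 factors, beside 485 genes (2.71%). These were Eif2ak1 (0.33 ± 0.11), Eif4e3 (0.59 ± 0.22), and Eef1akmt3 (-0.70 ± 0.31), each with an adjusted p of 1.000. A difference between genotypes in the response to fasting was not shown for any factor.

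By edgeR, no factor passed between the genotypes in either diet. In ad libitum–fed mice, 0 of 66 factors passed by edgeR or by DESeq2 (0.0168% of all genes), and 0 had an unadjusted p under 0.05, beside 1.67% of all genes, and 1 gene of 17875 passed by edgeR (0.00559%), which was Nts. The factors with the smallest p were Eef1e1, Eef2kmt, and Eif4e3, with adjusted p of 1.00. In fasted mice 0 of 66 passed by edgeR and 3 had an unadjusted p under 0.05, beside 9.14% of all genes, and 1 gene passed (0.00559%), again Nts. Those 3 were Eif2ak1 (0.33 ± 0.07; adjusted p = 0.162), Eef1akmt3 (-0.60 ± 0.23; adjusted p = 0.398), and Eif4e3 (0.36 ± 0.15; adjusted p = 0.453). Eif2ak1 was between 85.9 and 102 CPM in fasted Nt-/- and between 65.8 and 84.5 CPM in fasted Nt+/+ mice, which did not overlap. With DESeq2 it passed in fasted mice (log2, 0.34; adjusted p = 0.00608), where 98 genes passed (0.548%). The comparisons of fasted genotypes and of fasting in each genotype share mice, so these values of Eif2ak1 and Eif4e3 are not separate evidence.

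The gamma subunit of eIF2, which binds the initiator tRNA, is encoded by a pair of genes, Eif2s3x on the X and Eif2s3y on the Y chromosome. Eif2s3y had 0 counts in all 12 female mice and between 474 and 1028 counts in the 6 male mice. A count of 0 allows up to 3 counts, or at most 0.340 CPM in a female mouse, so the lowest male mouse, at 31.3 CPM, was at least 92.0-fold higher. Eif2s3x was between 65.3 and 88.1 TPM in female mice (median, 77.6) and between 43.3 and 65.9 TPM in male mice (median, 51.2), and only the highest male mouse reached the female range. It was 1.47-fold higher in female than in male mice (log2 male minus female, -0.55 ± 0.08; adjusted p = 0.00232), in a fit over 18 mice with the 4 groups as covariates. In that fit 14 of 17743 genes passed (0.0789%), and these were the only factors among them. Summed over both genes, the level was 89.2 ± 14.0 TPM (SD, n = 6) in male and 77.7 ± 6.75 TPM (SD, n = 12) in female mice, a difference of 11.5 TPM (two-sided exact permutation test, p = 0.0394), with ranges of 73.0 to 108 and 65.3 to 88.1 TPM that overlapped. The permutation took no account of the 4 groups or of the replicate numbers in the file names. By label each file-name number held mice of 1 sex, so sex cannot be told apart from what these numbers mark. Among the male mice the sums were 73.0, 75.2, and 91.7 TPM for number 3 and 102, 108, and 85.8 TPM for number 5. The mouse without a sex label had 54.6 TPM of Eif2s3x and 31.8 TPM of Eif2s3y.

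**Figure D5:**
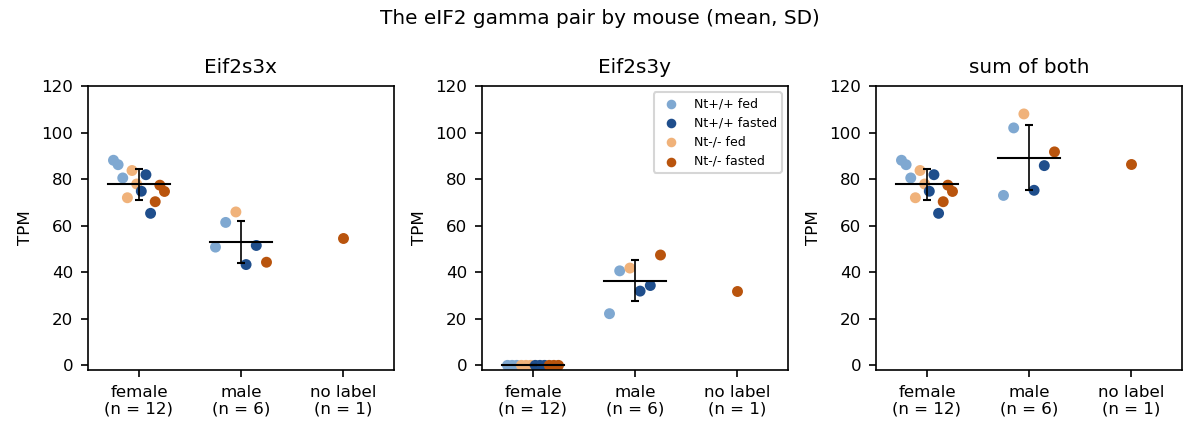
TPM of Eif2s3x, Eif2s3y, and their sum by sex label; points are mice colored by group, lines the mean, and bars the SD. Eif2s3y lies at 0 in the 12 female mice, Eif2s3x is lower in the 6 male mice, and the sums overlap.

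Other genes of translation were read from a list of 55, of which 53 were tested. In Nt+/+ mice 0 were higher and 9 lower, and in Nt-/- mice 1 was higher and 10 were lower (17% and 20.8%, beside the 21.6% and 25.2% of all genes). The mitochondrial translation factors held 5 of the 9 lower genes in Nt+/+ and 6 of the 10 in Nt-/- mice, among 9 listed. The smallest p values in Nt+/+ mice were those of Mtif2, the mitochondrial initiation factor, at 41.7 CPM fed and 30 CPM fasted (adjusted p = 3.07e-04), and of Tufm, the mitochondrial counterpart of eEF1A, at 137 CPM fed and 96.4 CPM fasted (adjusted p = 9.38e-04). In Nt-/- mice they were those of Tufm (133 to 84.5 CPM; adjusted p = 1.44e-04) and of Sephs2, of selenocysteine synthesis, which rose from 175 to 232 CPM (adjusted p = 0.00234). Of the 11 tested genes of signaling to the factors, among them Mtor, Rptor, Atf4, and Ppp1r15a, 0 passed in either genotype by edgeR or DESeq2, and by edgeR 4 in Nt+/+ and 2 in Nt-/- mice had an unadjusted p under 0.05 (34.1% and 36.5% of all genes did). Gcn1 was not matched. Of 5 poly(A)-binding genes, 0 passed in either genotype by either tool and 0 had an unadjusted p under 0.05.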

How the data were processed

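RNA was taken from small intestinal crypts of 19 mice. Per the labels and the study's methods, the authors depleted ribosomal RNA and sequenced single-end reads. The submitters' processing notes name Trimmomatic 0.39, RSEM, and the build GRCm38. The RSEM version and strand setting are not given in the sources used here. The authors deposited RSEM's expected count per gene, which is not normalized, and TPM, in which RSEM corrects for transcript length and library size. Another deposited unit, the effective length in bases, was used in 1 alternative for the levels and in 1 observation, and FPKM was not used.

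Expected counts were rounded to whole numbers. Genes were matched by ID to GENCODE vM21 symbols. Counts were fitted with edgeR 4.0.16 (R 4.3.3): TMM scaling, filterByExpr (17875 genes kept, 66 of the 68 factors), 1 coefficient for each group, no covariate, 15 residual degrees of freedom, a biological coefficient of variation of 18.9%, and quasi-likelihood tests with Benjamini-Hochberg adjustment over all genes at 0.05. Fold changes are on the log2 scale, SE is the log2 fold change over the square root of F, and CPM uses TMM library sizes. Sex was tested over 18 mice with the groups in the fit. The fit was tested on simulated counts drawn independently for each mouse, so that test does not cover mice that vary together. The study describes its control mice as littermates matched by sex and age, but nothing in the labels ties mice to litters. The p values thus measure the spread between these mice and leave this matching out. The main fit treats the mice as independent, although those with the same file-name number varied together, as given below.

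This family of genes, the gene lists, and the tests were chosen with earlier results of these data known; within the family, members were taken by symbol. Genes named are, in each comparison, the passing factors with the 10 highest and 10 lowest fold changes and the 3 smallest p, the 5 highest in TPM, members of paralogue families, and those that failed the filter. Of the other translation genes, the 2 with the smallest p in each fasting comparison are given with values, and signaling genes are named without values as members of the list. Alternatives were another filter on low counts or none, upper quartile scaling, DESeq2 1.42.0, blocks by replicate number, sex as a covariate, the compared groups alone, the other genotype for the mouse whose labels disagree, and each mouse left out.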

Additional observations from a re-analysis of the deposited data

Results flagged for a closer look

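In groups of 4 or 5 mice, 1 mouse stood apart from the others by Dixon's criterion in 8 of 156 groups (5.13%), close to the 1 in 20 that chance gives. Eif1 was at 260 CPM in fed Nt+/+ mouse 1 (others, 212 to 222 CPM) and at 268 CPM in fasted Nt-/- mouse 3 (others, 224 to 227 CPM). Eif2s3x was at 191 CPM in fed Nt-/- mouse 4, the male mouse of that group (others, 252 to 258 CPM). Eif4a2 was at 221 CPM in fed Nt+/+ mouse 1 (others, 235 to 241 CPM). Eif4e2 was at 66.4 CPM in fasted Nt+/+ mouse 3 (others, 55.2 to 57.7 CPM), and Eif4e3 was at 4.63 CPM in fasted Nt+/+ mouse 1 (others, 7.11 to 7.92 CPM). Eif6 was at 148 CPM in fasted Nt+/+ mouse 3 (others, 97.5 to 110 CPM) and at 99.0 CPM in fasted Nt-/- mouse 4 (others, 118 to 121 CPM).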

How the results depend on the processing

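No call of a factor reversed under any alternative. In Nt+/+ mice the 4 factors lower with fasting became 12 under the block by title number and 15 under the block by file-name number. In Nt-/- mice the 11 lower became 6 with no filter on low counts, 18 under the block by title number, and 20 under the block by file-name number. The share of all genes that passed in these fits is not given here. A change in the count of factors therefore cannot be told apart from a change over all genes. Same-numbered mice had deviations that correlated by 0.184 on average over 27 pairs for title numbers (lowest, -0.127; 19 over 0.1) and by 0.227 for file-name numbers (lowest, 0.0672; 24 over 0.1), and mice of different numbers by -0.0457 and -0.0565 over 108 pairs. Of 19 mice, 14 correlated best with their own title number and 18 with their own file-name number. By label, each file-name number held mice of 1 sex apart from the mouse with no sex label. Mice of 1 file-name number thus varied together, since 24 of 27 such pairs but 12 of 108 others were over 0.1. The fit without a block leaves this out and treats the mice as independent. It was kept because nothing states what the numbers mark, and whether they mark litters or batches was not tested. Statements that a factor did not pass are for fits without a block unless a block is named. Under the file-name block 12 more factors passed in Nt+/+ mice (Eef1akmt4, Eef1d, Eef2k, Eif2b1, Eif2b4, Eif2b5, Eif3a, Eif3j2, Eif4g3, Eif5a, Eif5b, and Eif6) and 9 more in Nt-/- mice (Eef1akmt4, Eef2k, Eif2b1, Eif2s1, Eif3b, Eif3j2, Eif4a1, Eif4g3, and Eif5a), 0 were lost, and 0 were gained for genotype or for its difference in response.

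Leaving out 1 mouse gave 2 to 6 factors lower and 6 to 8 higher with fasting in Nt+/+ and 5 to 14 lower and 8 to 11 higher in Nt-/- mice. Over all genes, 3022 to 3973 passed in Nt+/+ and 3442 to 4757 in Nt-/- mice in these fits, beside 3862 and 4499 with all mice. The count of lower factors was 2 in Nt+/+ mice without fed mouse 1 or 3 or fasted mouse 4, and 5 to 7 in Nt-/- mice without fed mouse 1 or 4 or fasted mouse 2, 3, or 4. In fasted mice Nt-/- against Nt+/+ gave 1 to 4 genes, with 4 without Nt-/- mouse 1. Genes that passed for genotype, 1 in each diet, became 0 and 0 with at least 10 counts in every mouse, 3 (fed) and 98 (fasted) with DESeq2, of which 1 was a factor, and 0 and 0 with the mouse of disagreeing labels as Nt-/-. Regrouped in that way, Nts had a log2 fold change of -4.70 (fed; adjusted p = 0.0824) and -2.0 (fasted; adjusted p = 0.781). With DESeq2 Nts was at -3.55 in fasted mice, with no adjusted p. The causes were not tested. Over the other alternatives, calls of single factors were lost 23 times, most often without a filter (adjusted p up to 0.119). Gains were counted here only for factors with the 3 smallest p of a comparison that had not passed, and 1 was found. The factors gained under the blocks, given above, are outside this count.

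Factors such as Eef1akmt3 (as few as 11 counts in a mouse) and Eif5a2 are limited by depth.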

Other observations

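Eif1 was the 1 of 65 factors in each genotype whose TPM and CPM gave different accounts of fasting, by over 1.2-fold, an observation made after the values were seen. Its TPM in fasted over fed mice was 0.767 in Nt+/+ and 0.854 in Nt-/- mice, whereas the ratios of its CPM were 0.958 and 1.03. RSEM's effective length of the gene, which averages its transcripts by their estimated shares, was between 576 and 634 bases in fed and between 638 and 790 bases in fasted Nt+/+ mice. In Nt-/- mice it was between 584 and 640 bases fed and between 707 and 754 bases fasted. The groups did not overlap in either genotype. These values describe the share of reads that RSEM assigned to longer transcripts of Eif1, and no test was made of them.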
